A study of Mus musculus with 18 samples.

Results

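Molecular chaperones and the genes of the unfolded protein response were examined in cones sorted from WT mouse retinas with and without added Txnip. Members were chosen by symbol alone: the HSP70, HSP90, HSP110, chaperonin (Hspd1, Hspe1) and small heat shock genes, the J proteins of the Dnaja, Dnajb and Dnajc series, the CCT subunits, and 15 genes named singly, such as Hsf1, Xbp1, Atf4, Atf6, Ddit3, Herpud1 and Trib3. This took 102 of 54532 annotated gene entries, of which 98 were protein-coding, 3 were processed pseudogenes and 1, Cct6a, was annotated as a processed transcript. They were sorted by the place of action of the protein into 56 cytosolic or nuclear, 20 endoplasmic reticulum (ER), 9 mitochondrial and 10 sensor and regulator entries, with 7 left unplaced. The symbol rule also takes genes that carry a chaperone name and another or unsure role (Dnajc4, Dnajc22, Hspb11, Hspbap1). Ddit3 has 2 entries, and the shorter lies wholly within the longer, so that its reads are counted for both.

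There were 4 groups. Albino BALB/c retinas at P21 gave 6 control and 6 Txnip libraries, and pigmented C57BL/6J retinas at P35 gave 3 of each. All eyes received at birth an AAV8 vector with the cone-specific SynP136 promoter that expresses H2BGFP, a green histone fusion that marks infected cones for the sort, and Txnip eyes received in addition an AAV8 vector that drives mouse Txnip from the human red opsin (RedO) promoter. Control eyes had no second vector, so added Txnip and a second AAV cannot be told apart. Each library was made from the sorted cones of 1 retina, and whether 2 retinas came from the same mouse was not given. Strain and age go together and cannot be told apart, and whether the strains were prepared together was not given.

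Proteins are folded in each compartment by its own chaperones. In the cytosol, HSP70 proteins bind unfolded stretches, J proteins bring them clients and trigger their ATPase, HSP90 finishes kinases and receptors, the CCT ring folds actin, tubulin and WD-repeat proteins, and small heat shock proteins hold clients without ATP. In the ER, BiP (Hspa5), GRP94 (Hsp90b1), the lectins calnexin (Canx) and calreticulin (Calr) and the disulfide isomerases (Pdia3, Pdia4, Pdia6) fold secreted and membrane proteins, among which the cone opsins are a large load for a photoreceptor. Overload of the ER is read by IRE1 (Ern1), which splices Xbp1 mRNA, by ATF6, and by PERK (Eif2ak3). PERK is also one of the kinases of the integrated stress response, through which ATF4, CHOP (Ddit3) and TRIB3 are made. Heat shock factor 1 (Hsf1) is the main activator of the cytosolic heat shock genes.

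The response elements that define these pathways can be read in the promoters of the members. RefSeq promoter windows (250 bases before to 50 after a start site, GRCm38.p6) were matched for 80 of 97 protein-coding symbols and searched on both strands. The ER stress element, CCAAT and CCACG with 9 bases between them, stood in the windows of 37 of 27025 genes (0.137%). It was present in 5 of the 8 ER chaperones with a window (Hspa5, Hsp90b1, Calr, Canx, Pdia6) and in 1 ER J protein, Dnajc3. The stretches are printed 5′ to 3′ on the strand of the gene, with the element in capitals, because these are the genes that the ER stress sensors are known to act on. That of Hspa5 lies at chr2:34772013-34772055 (plus strand), that of Hsp90b1 at chr10:86705521-86705668 (minus strand, 2 copies in opposite orientation), that of Calr at chr8:84847063-84847105 (minus strand, inverted), that of Canx at chr11:50325788-50325830 (minus strand), that of Pdia6 at chr12:17266479-17266521 (plus strand) and that of Dnajc3 at chr14:118937815-118937857 (plus strand).
Hspa5: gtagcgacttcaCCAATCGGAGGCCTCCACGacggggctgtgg
Hsp90b1: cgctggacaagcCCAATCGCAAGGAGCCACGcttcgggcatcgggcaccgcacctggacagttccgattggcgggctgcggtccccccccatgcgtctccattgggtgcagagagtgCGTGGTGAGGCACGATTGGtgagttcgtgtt
Calr: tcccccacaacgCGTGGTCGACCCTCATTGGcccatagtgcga
Canx: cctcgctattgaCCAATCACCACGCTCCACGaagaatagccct
Pdia6: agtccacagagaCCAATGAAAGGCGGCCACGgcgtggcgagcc
Dnajc3: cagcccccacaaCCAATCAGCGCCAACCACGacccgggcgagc

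A heat shock element of 3 inverted units (GAA, TTC and GAA, each 2 bases apart) stood in 179 of the 27025 windows (0.662%) and in 4 of the 80 members (Hspd1, Hspe1, Hsph1 and Dnajb6). Hspd1 and Hspe1, which encode the mitochondrial chaperonin HSP60 and its lid HSP10, are read in opposite directions from 1 shared stretch at chr1:55088047-55088088, shown on the strand of Hspd1 with 2 overlapping copies in capitals.
Hspd1: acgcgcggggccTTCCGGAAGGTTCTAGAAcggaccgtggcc

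The core of the element bound by ATF4 and its partners, TGATGNAA, is short and stood in 1219 of the 27025 windows (4.51%). It was found in 3 of the 80 members (3.75%), Herpud1 (chr8:94386305-94386336, plus strand), Trib3 (past its start site, not shown) and Hspa14. Of 19 genes listed for the integrated stress response 5 held it, among them Chac1 (chr2:119351037-119351068, plus strand) and Asns (chr6:7693213-7693244, minus strand). The longer form TGATGNAAT stood in 293 of the 27025 windows (1.08%), in 0 of the 80 members and in 0 of the 19 listed genes. The 3 stretches below, with the core in capitals, were chosen because their genes were lower in the pigmented strain. Not all carriers were lower there. Hspa14 was called higher in control cones of that strain, and Vldlr, among the 5 listed genes with the core, was not lower. A link between the core and the differences between the strains was not tested.
Herpud1: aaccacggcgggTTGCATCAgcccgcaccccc
Chac1: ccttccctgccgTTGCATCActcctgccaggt
Asns: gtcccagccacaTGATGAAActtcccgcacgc

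The libraries held 647712 to 5172156 counted read pairs, and the members took 0.72% to 1.33% of them. Txnip itself was at 0 to 1.48 CPM (counts scaled to a common TMM-normalized library size) in the 9 control libraries and at 821 to 1969 CPM in the 9 Txnip libraries. Cone markers summed to 43416 to 100752 CPM and rod markers to 3343 to 4736 CPM in 16 libraries, with higher rod sums in C57BL/6J control 1 (14021 CPM) and C57BL/6J Txnip 2 (12531 CPM). Bipolar markers were also higher in these 2 libraries, at 325 and 494 CPM against 70.9 to 148 CPM in the other C57BL/6J libraries, and endothelial markers were at 25.2 and 35.6 CPM against 0 to 9.15 CPM. Retinal pigment epithelium and lens markers summed to at most 11.01 CPM. In sorted pools fewer cells of a type and less RNA per cell cannot be told apart.

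Cones expressed a broad set of chaperones. Of the 102 entries, 83 passed the filter on low counts in the fit of all 18 libraries and 19 did not, with 1 to 101 counts each over all libraries. The 19 included the stress-inducible Hspa1b, the small heat shock genes Hspb1, Hspb2, Hspb3, Hspb7 and Hspb9, the endothelial Hspa12b, Dnajb3, Dnajb7, Dnajb8, Dnajb13, Dnajc5b, Dnajc5g, Dnajc22, Cct6b, Cct8l1 and the 3 pseudogenes. Levels were compared between genes as the median CPM per kilobase of exon over the 18 libraries, from which no test was made.

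The highest member per kilobase was Hspb6, a small heat shock protein best known from heart and smooth muscle, at 293 CPM per kilobase, rank 65 among the protein-coding genes tested. Its level was 511 to 762 CPM in BALB/c control cones (median 672), and 778, 834 and 1051 CPM in C57BL/6J control cones. Hspb8 was the only other small heat shock gene that passed the filter, at 1.89 CPM per kilobase. The constitutive HSP70 of the cytosol, Hspa8, stood at 115 CPM per kilobase, against 3.58 for the inducible Hspa1a, 25.9 for the exchange factor Hsph1 (HSP110) and 24.8 for Hspa12a, and the constitutive HSP90 gene Hsp90ab1 at 149, against 64.5 for Hsp90aa1. The leading J proteins were Dnajc5 (88.1), the cysteine string protein of synaptic vesicles, Dnaja2 (73.4), an HSP70 partner, and Dnajc7 (42.7). The 7 CCT subunits among the members lay between 37.8 (Cct4) and 78.5 CPM per kilobase (Cct5), with Cct8 at 76.6 and Cct6a at 72.4, and the subunit Tcp1 (CCT1), whose symbol the rule does not take, was at 35.8.

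Among ER chaperones Hspa5 (148 CPM per kilobase), Canx (122), Hsp90b1 (111) and Calr (92.7) led, while the ER J proteins were lower, with Dnajb11 at 29.8, Dnajc18 and Dnajc10 at 19.4. In mitochondria Hspa9 (mortalin) stood at 49.7, Hspd1 at 29.1 and Dnaja3 at 27.9 CPM per kilobase. The most abundant regulator mRNA was Atf4 (153), followed by Ddit3 (65.6 for the longer model) and Herpud1 (62.2), an ER membrane protein of ER-associated degradation. The 3 ER stress sensors were low in comparison, with Ern1 at 3.06, Eif2ak3 at 3.10 and Atf6 at 7.32 CPM per kilobase.

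**Figure D1:**
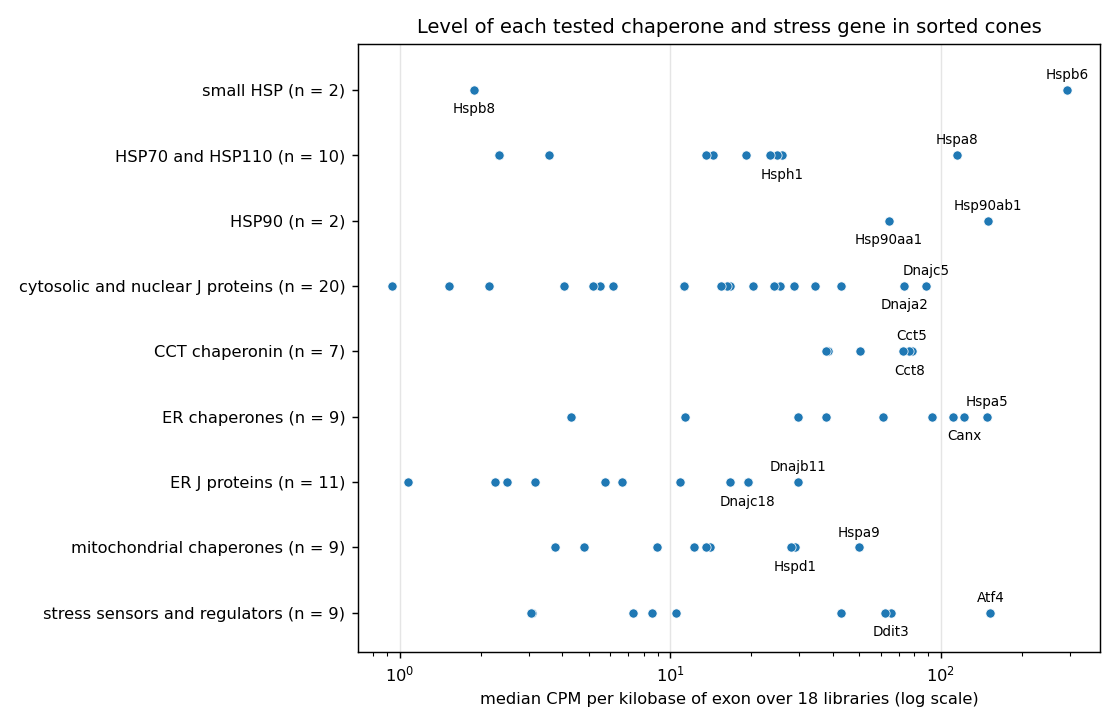
Median level of the members tested, by family (the shorter Ddit3 model and genes of unsure role left out), as CPM per kilobase of exon over the 18 libraries on a log axis; each point is a gene and the highest of each family are named. Hspb6 stands farthest to the right at 293 CPM per kilobase, and the 7 CCT subunits among the members lie between 37.8 and 78.5.

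The first comparison asked whether added Txnip changed these genes in WT cones. In BALB/c, 0 of the 82 members tested passed an adjusted p of 0.05 in edgeR's quasi-likelihood test, beside 2 of all 12017 genes (0.0166%). At an unadjusted p under 0.05 there were 8 members (2 higher and 6 lower in Txnip cones) of 1372 genes, and DESeq2 called 0 members. The median log2 fold change was -0.03 over the members and 0.00 over all genes. By place of action the medians were -0.03 for 40 cytosolic, -0.05 for 20 ER, -0.05 for 9 mitochondrial and 0.08 for 10 regulator entries.

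Dnajb11, the ER J protein ERdj3 that works with BiP, was at 66.2, 129.1, 113.9, 126.8, 131.3 and 92.7 CPM in control libraries 1 to 6. It was at 100.3 and 76.9 CPM in Txnip libraries 1 and 2 and at 22.6, 21.2, 23.9 and 24.8 CPM in Txnip libraries 3 to 6. Txnip libraries 3 to 6 thus lay below all controls and the other two among them. The log2 fold change was -1.17 (SE 0.32, adjusted p = 0.142).

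Xbp1, the transcription factor that IRE1 activates by splicing, was at 138 to 232 CPM in the 6 controls (median 165) and at 163.6, 154.1, 94.1, 71.9, 79.6 and 93.0 CPM in Txnip libraries 1 to 6 (log2 fold change -0.61, SE 0.18, adjusted p = 0.187). The counts are per gene, so the spliced and unspliced forms were not separated. Dnajb2, a J protein rich in neurons that hands ubiquitinated clients to the proteasome, was at 134.7 to 171.6 CPM in controls and at 145.1, 159.3, 87.9, 62.3, 77.0 and 75.9 CPM in Txnip libraries 1 to 6 (log2 fold change -0.52, SE 0.18, adjusted p = 0.251). In both genes Txnip libraries 3 to 6 again lay below all controls. The same libraries stood apart in genes that are no members, of which 2 are given with their values known. Afg3l2, a subunit of a mitochondrial protease, was at 61.1 to 82.8 CPM in controls, at 62.5 and 70.9 CPM in Txnip libraries 1 and 2 and at 20.3 to 24.8 CPM in Txnip libraries 3 to 6. Txndc5, a disulfide isomerase of the ER, was at 290 to 363 CPM in controls, at 285 and 262 CPM in Txnip libraries 1 and 2 and at 103 to 147 CPM in Txnip libraries 3 to 6.

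Hspa5 was at 556 to 1038 CPM in controls (median 682) and at 499 to 687 CPM in Txnip cones (median 606), so that the groups overlapped (log2 fold change -0.31, SE 0.12, adjusted p = 0.321). Hspa12a, a distant relative of the HSP70 family, was at 108 to 133 CPM in controls and 113 to 162 CPM in Txnip cones (log2 fold change 0.22, SE 0.09, adjusted p = 0.366). Among the best-known members the other log2 fold changes lay between -0.22 (Hspa8, SE 0.12) and 0.34 (Calr, SE 0.16), with Herpud1 at -0.17 (SE 0.11), Atf4 at -0.07 (SE 0.07) and Ddit3 at 0.18 (SE 0.11). When Txnip library 1 was left out, 3 members passed, all lower: Dnajb11 (log2 fold change -1.62, adjusted p = 0.00516), Xbp1 (-0.77, adjusted p = 0.0203) and Dnajb2 (-0.66, adjusted p = 0.0498), beside 258 of 12110 genes. With all genes of at least 1 count kept, 5 members passed (Dnajb11, Xbp1, Dnajb2 and Hspa5 lower, Calr higher), beside 1400 of 40933 genes.

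**Figure D2:**
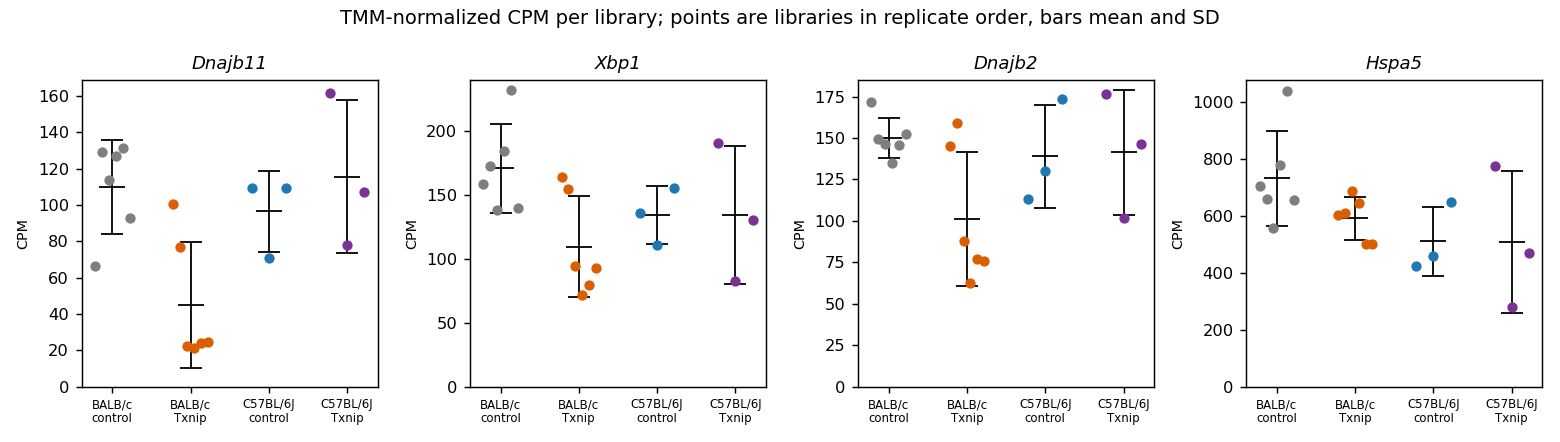
TMM-normalized CPM (vertical axis, from 0) of Dnajb11, Xbp1, Dnajb2 and Hspa5 in each library of the 4 groups, with points in order of replicate number and bars for the mean and SD. In BALB/c Txnip cones the first 2 points of Dnajb11 (100.3 and 76.9 CPM) stand apart from the other 4 (21.2 to 24.8 CPM), and the C57BL/6J groups overlap in every panel.

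In C57BL/6J, 0 of 81 members passed, beside 2 of 12974 genes (0.0154%). At an unadjusted p under 0.05 there were 0 members of 97 genes, and DESeq2 called 0 members. The median log2 fold change of the members was -0.05 and that of all genes 0.01. The 5 members with the smallest p-values were Dnajc28 (log2 fold change -0.50, SE 0.25), a little-studied mitochondrial J protein, Hspa1l (-0.67, SE 0.39), a relative of Hspa1a abundant in testis, Dnajc16 (0.54, SE 0.33) and Dnajb14 (0.30, SE 0.22), both of the ER membrane, and Hspa12a (0.27, SE 0.21), each with an adjusted p of 1.00. Dnajb11 was at 109.5, 70.5 and 109.2 CPM in C57BL/6J controls and at 161.4, 78.2 and 107.3 CPM in Txnip cones (log2 fold change 0.25, SE 0.28). Among the best-known members the log2 fold changes lay between -0.39 (Eif2ak3, SE 0.35) and 0.29 (Ern1, SE 0.41), and Trib3 was too low to be tested in C57BL/6J alone. Xbp1 was at 135.8, 110.3 and 155.3 CPM in controls and 190.2, 82.2 and 129.9 CPM in Txnip cones (-0.01, SE 0.29).

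The difference between the strains in the effect of Txnip was tested as an interaction in 1 fit, and 0 of 83 members passed, nor did any of the 14751 genes (0%). There was 1 member at an unadjusted p under 0.05, Dnajb11, of 706 genes, and DESeq2 called 0 members. The effect of Txnip on Dnajb11 was higher in C57BL/6J than in BALB/c by 1.46 on the log2 scale (SE 0.55, adjusted p = 0.906). The next 4 were Dnajc16 (0.64, SE 0.35), Hspa1l (-0.91, SE 0.50), Xbp1 (0.62, SE 0.36) and Trib3 (-1.11, SE 0.65), each with an adjusted p of 1.00. With SEs of this size the comparison does not show that the strains responded alike.

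The strains themselves differed in these genes. In control cones 15 of the 83 members (18.1%) passed between P35 C57BL/6J and P21 BALB/c, beside 17.5% of the 14751 genes tested. Of these, 5 were higher in C57BL/6J (8.03% of all genes were) and 10 were lower (9.52% of all genes). In Txnip cones, which are other libraries, 19 of 83 (22.9%) passed, beside 17.6% of all genes, with 8 higher (8.24%) and 11 lower (9.38%). Over the whole list the shares were thus near the background. There were 11 members called the same way in both comparisons (13.3%, beside 11.1% of all genes), which is 73.3% of those called in control cones and 57.9% of those called in Txnip cones.

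The list is described here by place of action, without a test, and lower or higher is the sign of the log2 fold change unless a gene is called. Of the 10 regulator entries, 9 were lower in C57BL/6J control cones, 4 of them called, with a median log2 fold change of -0.45. Of the 20 ER entries, 15 were lower and 3 called lower (median -0.38). Of the 41 cytosolic entries tested, 25 were higher, 5 called higher and 3 lower (median 0.10). Of the 9 mitochondrial entries, 5 were higher and 0 called (median 0.10). The median over all genes was -0.0012. In Txnip cones the medians were -0.52 for regulators, -0.25 for the ER, 0.14 for the cytosol and -0.08 for mitochondria, beside 0.05 over all genes.

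Leaving out C57BL/6J control 3 reduced the members called in control cones to 8, beside 1605 of 15479 genes (10.4%). Leaving out BALB/c Txnip 3 or C57BL/6J Txnip 3 reduced those in Txnip cones to 11, beside 14.7% and 11.9% of all genes. Without the 2 libraries of high rod level, 17 were called in control cones (7 higher, 10 lower), beside 17.6% of all genes (1028 higher, 1714 lower). In Txnip cones 23 were then called (15 higher, 8 lower), beside 20.3% of all genes (1372 higher, 1800 lower). In 6 members (7.23%) every C57BL/6J library lay below every BALB/c library: Herpud1, Trib3, Dnajb9, Canx, Dnajc27 and Hspb8, beside 4.46% of all genes. In 0 members did every C57BL/6J library lie above, beside 3.41% of all genes.

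**Figure D3:**
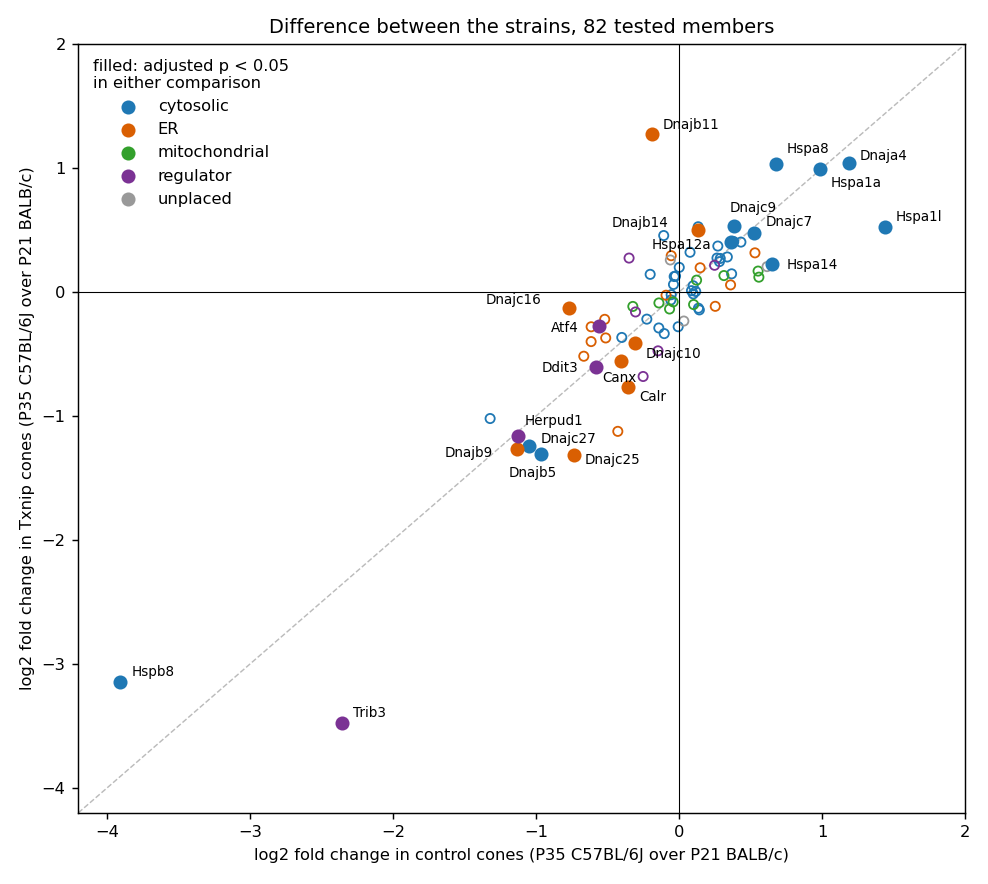
Log2 fold change of P35 C57BL/6J over P21 BALB/c in control cones (horizontal axis) and in Txnip cones (vertical axis) for 82 members (the shorter Ddit3 model left out), coloured by place of action; filled points had an adjusted p under 0.05 in either comparison, and the dashed line marks equal differences. Trib3 and Hspb8 lie lowest, regulators and ER genes lie mostly below 0, and Dnajb11 stands off the line at 1.27 in Txnip cones.

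Herpud1 was lower in C57BL/6J in both comparisons. In BALB/c its level ran from 145 to 218 CPM without Txnip (median 155) and from 127 to 166 CPM with it (median 150). It was at 91.1, 53.0 and 85.7 CPM in C57BL/6J control cones and 84.9, 49.9 and 63.9 CPM in C57BL/6J Txnip cones. It was 2.19-fold lower in C57BL/6J control cones (log2 fold change -1.13, SE 0.19, adjusted p = 0.000194) and 2.24-fold lower in Txnip cones (-1.16, SE 0.19, adjusted p = 0.000145). The gene lies at chr8:94386438-94395377, and the call was made in 26 of 26 alternative fits in each comparison. Many of the 26 leave out 1 library, and some of these drop a library of neither group compared. Such fits change the estimated spread and hardly the fold change, so the 26 are not independent checks.

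Trib3, a pseudokinase that restrains AKT and is induced by ATF4 and CHOP, was the regulator with the largest fold. In BALB/c it ran from 12.3 to 32.6 CPM in controls (median 19.4) and from 17.8 to 27.6 CPM with Txnip (median 20.3). It was at 7.9, 3.2 and 0.8 CPM in C57BL/6J control cones and 2.4, 2.6 and 0.9 CPM in Txnip cones, from 3 to 22 counts a library. The log2 fold change was -2.36 (SE 0.44, adjusted p = 0.000624) in control cones and -3.47 (SE 0.48, adjusted p = 2.13e-05) in Txnip cones. The gene lies at chr2:152337422-152344032.

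Atf4, the main transcription factor of the integrated stress response, was called in control cones. It was tightly held in BALB/c control cones at 356 to 382 CPM and lower in C57BL/6J control cones at 217.9, 225.9 and 308.9 CPM (log2 fold change -0.56, SE 0.15, adjusted p = 0.0141). In Txnip cones it was at 322 to 371 CPM in BALB/c and at 389.8, 216.2 and 266.0 CPM in C57BL/6J, and did not pass (-0.28, SE 0.15, adjusted p = 0.224). Without C57BL/6J control 1 the call in control cones was lost (-0.48, adjusted p = 0.0714), and without C57BL/6J Txnip 1 the difference in Txnip cones passed (-0.55, adjusted p = 0.00958). ATF4 is controlled largely by translation, which mRNA counts do not measure.

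Ddit3 encodes CHOP, a transcription factor of prolonged ER stress. Its longer model was at 91.1 to 149.5 CPM in BALB/c control cones and 71.7, 80.2 and 74.3 CPM in C57BL/6J control cones (log2 fold change -0.58, SE 0.18, adjusted p = 0.0264), groups that did not overlap. In Txnip cones it was at 113 to 143 CPM in BALB/c and 111.8, 59.5 and 81.0 CPM in C57BL/6J (-0.61, SE 0.18, adjusted p = 0.0196). The call was lost without C57BL/6J control 1 (adjusted p = 0.0785) or control 3 (adjusted p = 0.0940), and in Txnip cones without C57BL/6J Txnip 2 (adjusted p = 0.105) or Txnip 3 (adjusted p = 0.0804).

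The sensors and the other regulators did not pass in either comparison. In control cones the log2 fold change was -0.35 for Xbp1 (SE 0.26), -0.31 for Ern1 (SE 0.28), -0.25 for Eif2ak3 (SE 0.29), -0.15 for Atf6 (SE 0.20) and 0.25 for Hsf1 (SE 0.16). In Txnip cones it was 0.27 for Xbp1 (SE 0.25), -0.16 for Ern1 (SE 0.28), -0.68 for Eif2ak3 (SE 0.30), -0.47 for Atf6 (SE 0.20) and 0.22 for Hsf1 (SE 0.16). The smallest adjusted p among these was 0.105 (Atf6 in Txnip cones).

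In the ER, calnexin and the J protein ERdj4 (Dnajb9), which represses IRE1, were lower in both comparisons. Dnajb9 was at 33.4 to 71.3 CPM in BALB/c control cones and 38.7 to 61.3 CPM in BALB/c Txnip cones. All 6 C57BL/6J libraries were lower, at 25.9, 21.1 and 19.7 CPM in controls and 22.5, 19.1 and 21.9 CPM with Txnip. It was 2.19-fold lower in control cones (log2 fold change -1.13, SE 0.21, adjusted p = 0.000497) and 2.41-fold lower in Txnip cones (-1.27, SE 0.21, adjusted p = 0.000145), and the call was made in 26 of 26 alternative fits in each comparison. It lies at chr12:44205559-44210326.

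Canx was one of the most abundant members. It was at 552 to 651 CPM in BALB/c control cones and 567.8 to 697 CPM in BALB/c Txnip cones. The C57BL/6J libraries were at 435.2, 403.9 and 506.0 CPM in control cones and 464.2, 346.1 and 453.6 CPM in Txnip cones. It was 1.33-fold lower in control cones (log2 fold change -0.41, SE 0.12, adjusted p = 0.0258) and 1.47-fold lower in Txnip cones (-0.55, SE 0.13, adjusted p = 0.00344). The call in control cones was lost without C57BL/6J control 1 (adjusted p = 0.0694) or control 2 (adjusted p = 0.0731).

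Its soluble relative Calr was called lower in Txnip cones (log2 fold change -0.77, SE 0.24, adjusted p = 0.0274), and was at -0.35 (SE 0.23, adjusted p = 0.316) in control cones. The call was lost without C57BL/6J Txnip 1 (adjusted p = 0.128) or Txnip 2 (adjusted p = 0.0746). The other ER chaperones did not pass in either comparison. In control cones the log2 fold change was -0.52 for Hspa5 (SE 0.24), -0.51 for Pdia4 (SE 0.19), -0.62 for Sdf2l1 (SE 0.32), a partner of ERdj3, -0.06 for Pdia6 (SE 0.18), 0.36 for Pdia3 (SE 0.16) and 0.15 for Hsp90b1 (SE 0.16). In Txnip cones the same 6 genes ran from -0.37 (Pdia4) to 0.29 (Pdia6). Of the genes with the ER stress element printed above, Canx was lower in both comparisons, Calr was lower in Txnip cones, and Hspa5, Hsp90b1, Pdia6 and Dnajc3 passed in neither.

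Of the other ER J proteins, Dnajc16 was lower in control cones (log2 fold change -0.77, SE 0.25, adjusted p = 0.0394) and at -0.13 in Txnip cones. Dnajc10, a disulfide reductase of ER-associated degradation (-0.42, SE 0.14, adjusted p = 0.0464), and Dnajc25 (-1.32, SE 0.46, adjusted p = 0.0485) were lower in Txnip cones, and Dnajb14 was higher there (0.50, SE 0.16, adjusted p = 0.0286). Dnajc25 shares 348 exonic bases with Gm20503 on the same strand, whose log2 fold change in Txnip cones was -1.34 (SE 0.45, adjusted p = 0.0431). Reads of that pair cannot be told apart there, and the call may be of either gene. Of the 26 alternative fits the call was made in 22 for Dnajc16, 16 for Dnajc10, 7 for Dnajc25 and 17 for Dnajb14. Dnajb11 was called higher in C57BL/6J Txnip cones (1.27, SE 0.38, adjusted p = 0.0222) and was at -0.19 in control cones. The BALB/c side of that difference holds the 4 low Txnip libraries listed above, and without BALB/c Txnip 3 (adjusted p = 0.0570) or C57BL/6J Txnip 1 (adjusted p = 0.155) it did not pass.

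**Figure D4:**
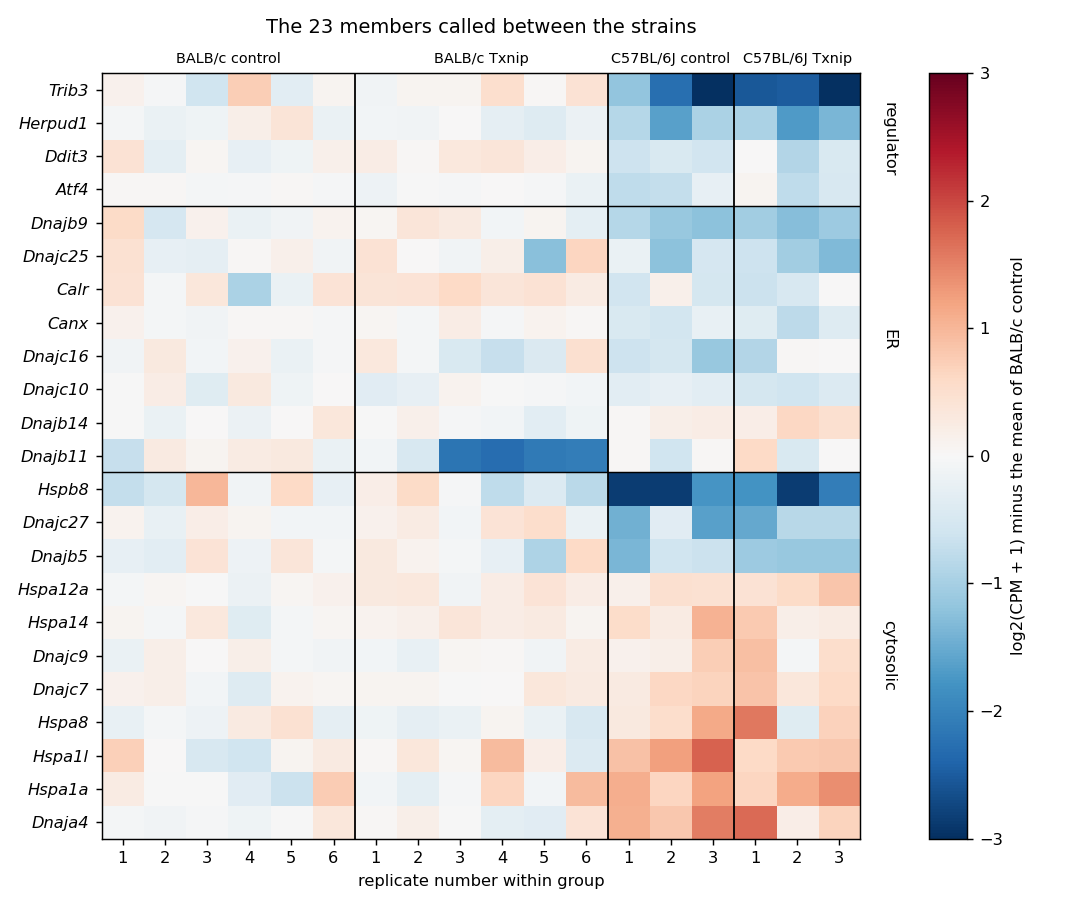
The 23 members called in either strain comparison, in rows grouped by place of action, and the 18 libraries, in columns grouped by strain and vector. Colour is log2(CPM + 1) less the mean of the BALB/c control libraries, limited to 3 in either direction. Trib3, Herpud1, Dnajb9 and Hspb8 are blue in all C57BL/6J columns, Dnajb11 is blue in BALB/c Txnip 3 to 6, and Hspa8, Hspa1a and Dnaja4 are red in most C57BL/6J columns.

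In the cytosol the HSP70 and HSP110 members that passed were higher in C57BL/6J, 3 of 10 tested in each comparison, beside 8.03% and 8.24% of all genes. Hspa1a was called in both, Hspa1l and Hspa14 in control cones only, and Hspa8 and Hspa12a in Txnip cones only. Of the 10, 4 had a negative log2 fold change in control cones (lowest -1.32) and 3 in Txnip cones (lowest -1.02). Hspa8, the constitutive HSC70, was at 434 to 723 CPM in BALB/c control cones and 377 to 557 CPM in BALB/c Txnip cones. It was at 643.7, 761.9 and 1167.8 CPM in C57BL/6J control cones and at 1575.1, 411.8 and 853.4 CPM in C57BL/6J Txnip cones. C57BL/6J Txnip 1 was thus the highest library of the series for this gene, and it also had the highest summed CPM of the CCT (2202), HSP70 and HSP110 (2447.5), HSP90 (943) and small heat shock (1152) members. Its cone markers summed to 97152 CPM, against 43416 and 69540 CPM in C57BL/6J Txnip 2 and 3, and its share of counts in 4 genes of a ribosomal RNA locus was 5.73%, against 27.2% and 20.3%. Over the C57BL/6J libraries that share ran from 3.31% to 27.8%. The part of these in the calls that turn on this library was not tested. For Hspa8 the lowest of the 3 was one of the 2 with a high rod level. The log2 fold change was 1.03 in Txnip cones (SE 0.26, adjusted p = 0.00790) and 0.67 in control cones (SE 0.26, adjusted p = 0.0813). Without C57BL/6J Txnip 1 the first was lost (0.45, adjusted p = 0.234), while the second passed without C57BL/6J Txnip 1 (0.67, adjusted p = 0.0237) or Txnip 2 (0.67, adjusted p = 0.0177), and without the 2 libraries of high rod level (0.83, adjusted p = 0.00634).

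The stress-inducible Hspa1a was low everywhere, at 4.5 to 13.4 CPM in BALB/c control cones, 5.9 to 15.5 CPM in BALB/c Txnip cones, 16.9, 12.2 and 18.6 CPM in C57BL/6J control cones and 12.2, 17.2 and 21.5 CPM in C57BL/6J Txnip cones. Its log2 fold change was 0.98 (SE 0.33, adjusted p = 0.0395) in control cones and 0.99 (SE 0.33, adjusted p = 0.0402) in Txnip cones, and it was called in 11 and 14 of 26 alternative fits. Over 75.7% of its transcript it has a copy of at least 95% identity, chiefly in Hspa1b, which had 20 counts in all, so that reads of the pair could not be assigned with certainty. Hspa1l was called in control cones (1.44, SE 0.34, adjusted p = 0.00529) at 9.0, 11.8 and 17.7 CPM in C57BL/6J against 2.6 to 7.9 CPM in BALB/c, and was lost without C57BL/6J control 3 (adjusted p = 0.0732). It shares 71.9% of its exonic bases with Gm10501 on the opposite strand, whose log2 fold change in control cones was 1.13 (SE 0.30, adjusted p = 0.0104). The counting did not use strand, so that reads of Hspa1l and Gm10501 cannot be told apart there and the call may be of either gene. Hspa14, a ribosome-bound HSP70, was called in control cones (0.65, SE 0.17, adjusted p = 0.0122) and not without C57BL/6J control 3 (0.40, adjusted p = 0.195). Near-identical copies also cover 64.8% of the Hspa8 transcript, chiefly in pseudogenes.

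Among cytosolic J proteins Dnaja4, a heat-inducible partner of HSP70, was higher in C57BL/6J. It was at 16.7 to 23.5 CPM in BALB/c control cones and 14.2 to 24.8 CPM in BALB/c Txnip cones, and at 39.6, 32.9 and 54.6 CPM in C57BL/6J control cones and 61.6, 21.3 and 29.8 CPM in C57BL/6J Txnip cones. The fold was 2.28 in control cones (log2 fold change 1.19, SE 0.25, adjusted p = 0.00191), where the groups did not overlap, and 2.05 in Txnip cones (1.04, SE 0.26, adjusted p = 0.00682), where the call was lost without C57BL/6J Txnip 1 (0.48, adjusted p = 0.196). Dnaja4 shares 44.1% of its exonic bases with Wdr61 on the opposite strand, whose log2 fold changes were 0.43 and 0.63. Reads of the pair cannot be told apart there.

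Dnajc7 (TPR2), a cochaperone that joins HSP70 and HSP90, was higher in control cones (log2 fold change 0.53, SE 0.14, adjusted p = 0.0139) and Txnip cones (0.48, SE 0.14, adjusted p = 0.0255), and was called in 24 and 21 of 26 alternative fits. Dnajc9 (0.53, adjusted p = 0.0433), a J protein that also binds histones, and Hspa12a (0.40, adjusted p = 0.0358) were called in Txnip cones and in 11 and 14 of 26 alternative fits.

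Dnajc27, a small GTPase with a J domain (RBJ), went the other way. It was at 71.3 to 95.7 CPM in BALB/c control cones and 72.8 to 119.4 CPM in BALB/c Txnip cones, and at 29.9, 65.9 and 26.1 CPM in C57BL/6J control cones and 28.2, 46.2 and 46.1 CPM in C57BL/6J Txnip cones. The log2 fold change was -1.05 (SE 0.24, adjusted p = 0.00375) and -1.24 (SE 0.24, adjusted p = 0.000828), called in 26 of 26 alternative fits in each comparison. Dnajb5 was low and lower in C57BL/6J in both (-0.96, adjusted p = 0.0454, and -1.31, adjusted p = 0.00928), and was called in 13 and 25 of 26 alternative fits.

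The small heat shock protein Hspb8, which works with BAG3 in selective autophagy, was near the limit of detection. It had 6, 7, 27, 13, 33 and 26 counts in BALB/c control libraries 1 to 6, and 30, 26, 28, 5, 5 and 2 counts in BALB/c Txnip libraries 1 to 6. It had 0, 0 and 4 counts in C57BL/6J control libraries and 4, 0 and 3 counts in C57BL/6J Txnip libraries, from 2437910 to 4880195 counted pairs a library. A count of 0 allows up to 3 counts, which is 0.69 to 1.10 CPM in these libraries. The log2 fold change was -3.91 (SE 0.81, adjusted p = 0.00160) and -3.14 (SE 0.75, adjusted p = 0.00493), a fitted value that depends on the handling of counts of 0. The abundant Hspb6 did not pass (0.43, SE 0.16, adjusted p = 0.0741, and 0.40, SE 0.16, adjusted p = 0.0994).

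CCT, HSP90 and the mitochondrial chaperones had no member past the threshold. Of the CCT subunits among the members 0 of 7 passed in either comparison, with 6 of 7 higher in C57BL/6J in each, from -0.01 (Cct2) to 0.38 (Cct5) in control cones and from -0.28 (Cct2) to 0.41 (Cct5) in Txnip cones. The remaining subunit Tcp1, no member, was at 0.20 (SE 0.16, adjusted p = 0.426) and 0.30 (SE 0.16, adjusted p = 0.218). The HSP90 genes were at 0.37 (Hsp90aa1, SE 0.17) and -0.06 (Hsp90ab1, SE 0.18) in control cones, and at 0.15 and -0.02 with Txnip. Of the 9 mitochondrial members 0 passed in either. In control cones Hspd1 was at 0.12 (SE 0.16), Hspa9 at -0.07 (SE 0.14) and Hspe1 at 0.56 (SE 0.24), and in Txnip cones all 9 lay between -0.14 and 0.17. At an unadjusted p under 0.05 there were 32 of the 83 members in control cones and 29 in Txnip cones, beside 4591 and 4453 of all 14751 genes tested. DESeq2 called 18 members in each comparison, beside 2822 of 18269 genes without Txnip and 2785 of 17420 with it.

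**Figure D5:**
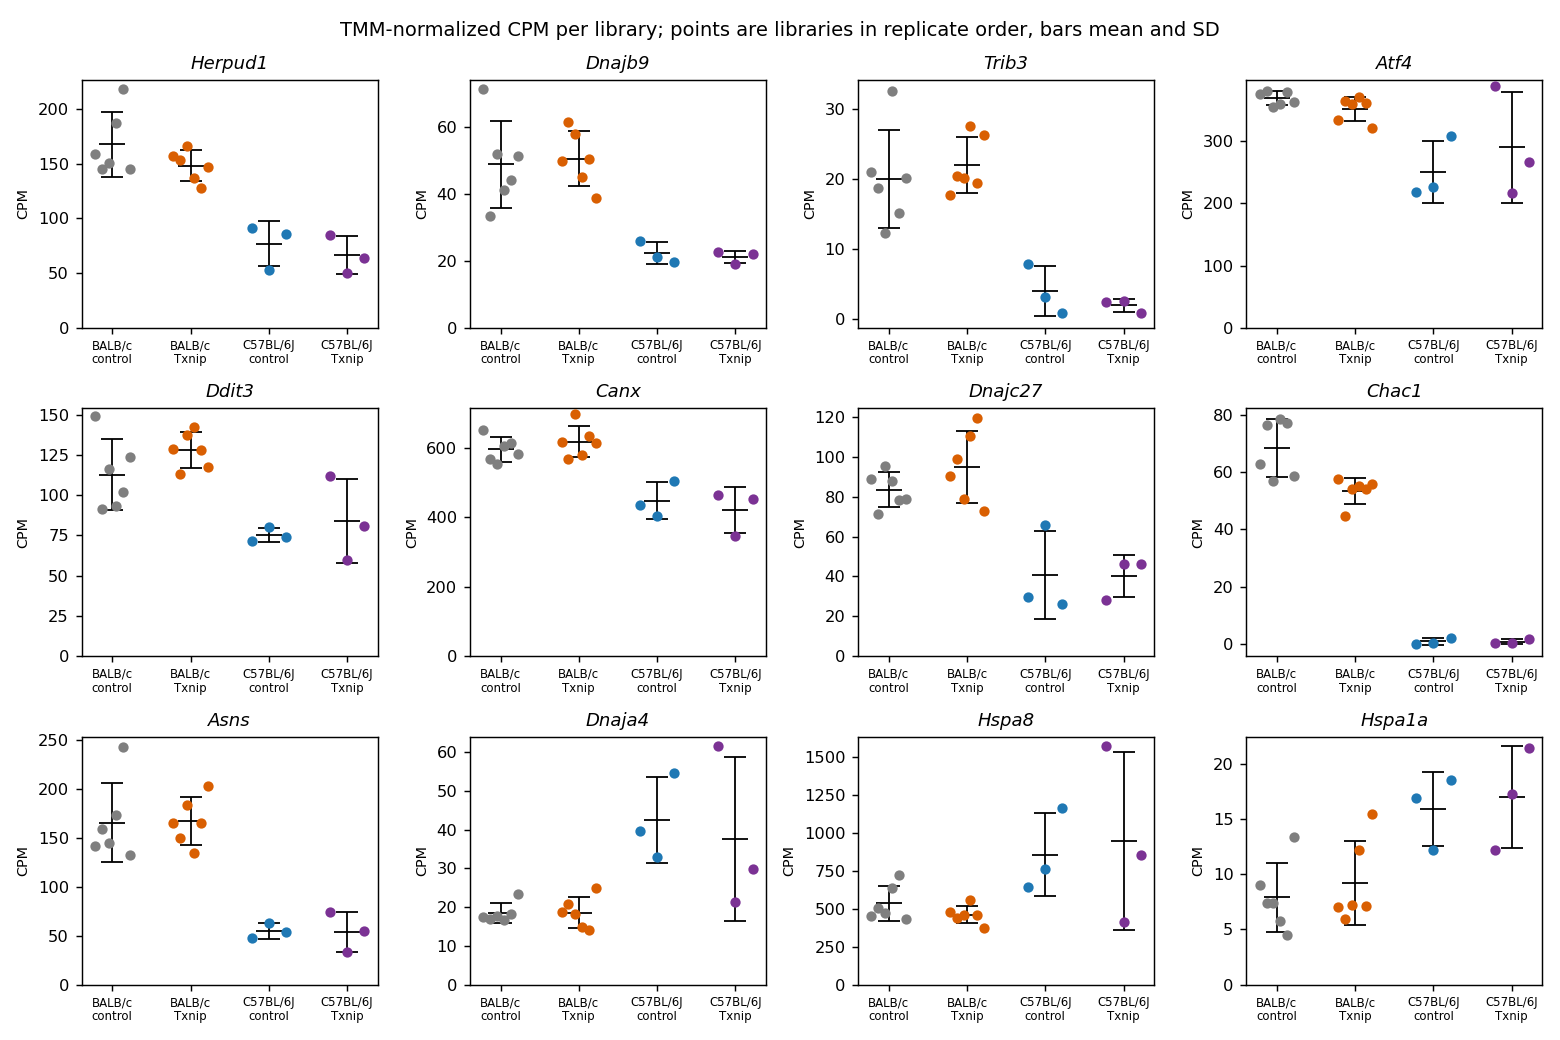
TMM-normalized CPM (vertical axis) in each library of the 4 groups for 10 members and for Chac1 and Asns, 2 targets of the integrated stress response; points stand in order of replicate number and bars give the mean and SD. Chac1 is at 44.6 to 78.4 CPM in BALB/c and at most 2.2 CPM in C57BL/6J, and Hspa8 spreads from 411.8 to 1575.1 CPM in C57BL/6J Txnip cones.

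Other proteostasis genes were counted from lists written by hand with earlier results of these data known. Their counts are therefore a description and no independent support. The list for the integrated stress response holds targets and also genes upstream of ATF4, the kinases Eif2ak1, Eif2ak2 and Eif2ak4 and their substrate Eif2s1. Of its 18 tested genes, which are no members, 10 were called lower and 0 called higher in C57BL/6J control cones (14 of 18 were below 0). Their median log2 fold change was -1.11, beside 9.52% of all genes called lower. In Txnip cones 8 were called lower and 0 called higher (15 of 18 below 0, median -1.09), beside 9.38%. Beside Phgdh, Shmt2 and Asns, those called in both comparisons included Psat1, Mthfd2 and the amino acid transporter subunit Slc3a2. Chac1, which degrades glutathione, was at 56.7 to 78.4 CPM in BALB/c control cones and at 0, 1 and 8 counts in the C57BL/6J control libraries (log2 fold change -6.08, SE 0.42, adjusted p = 1.17e-09), and at 44.6 to 57.4 CPM in BALB/c Txnip cones against 1, 1 and 8 counts in C57BL/6J (-5.80, SE 0.41, adjusted p = 1.97e-09). Asns, asparagine synthetase, was at 133 to 243 CPM in BALB/c control cones and 47.2, 63.0 and 53.5 CPM in C57BL/6J control cones (-1.60, SE 0.22, adjusted p = 2.30e-05), with the same log2 fold change to within 0.01 in Txnip cones (-1.61).

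Of the serine and one-carbon enzymes, Phgdh was at 13.99 to 30.6 CPM in BALB/c control cones and at 3, 0 and 3 counts in C57BL/6J control libraries (-5.03, SE 0.45, adjusted p = 4.01e-08), and Shmt2 was at 105 to 155 CPM against 30.3, 13.6 and 26.1 CPM (-2.41, SE 0.21, adjusted p = 2.85e-08). Atf3, a transcription factor induced by ATF4 and by many other stimuli, was at -1.72 (SE 0.33, adjusted p = 0.000682). Asns and Atf3 were named with their values known.

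Immediate early genes, which are known to respond to dissociation of tissue, also differed: 8 of 8 (Fos, Fosb, Jun, Junb, Egr1, Ier2, Atf3 and Dusp1) had a negative log2 fold change in control cones, 4 of them called, and the 8 summed to 228 to 1585 CPM in BALB/c and 158 to 324 CPM in C57BL/6J libraries. Of 5 amacrine markers 4 were lower, 3 of them called. Their sums were 224 to 324 CPM in BALB/c control cones and 336 to 448 CPM in BALB/c Txnip cones, groups that did not overlap. In C57BL/6J they were 104 to 290 CPM in control cones and 157 to 239 CPM in Txnip cones. Of 8 Müller glia markers 7 were higher in control cones, 2 of them called, and 1 was called lower, Clu, with a median log2 fold change of 0.82. Their sums, of which Clu made up most in BALB/c, were 983 to 1315 CPM in BALB/c and 454 to 1293 CPM in C57BL/6J. Cone markers were higher in 11 of 12 (4 called, median 0.30), rod markers in 6 of 9 (4 called, median 1.596) and bipolar markers in 6 of 6 (0 called, median 1.28). C57BL/6J control 1 had by far the highest rod and bipolar sums of the controls (14021 and 325 CPM). Control 2 was at 3343 and 70.9 CPM and control 3 at 4736 and 148 CPM, against 3662 to 4647 and 75.3 to 118 CPM in BALB/c controls. Apart from the fits with a rod covariate or without the 2 libraries of high rod level, the part of these markers in the differences between the strains was not tested.

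Among 33 tested genes of ER folding and ER-associated degradation, 3 were called higher and 5 called lower in control cones (20 of 33 below 0, median -0.07) and 1 was called higher and 5 called lower in Txnip cones (14 of 33 below 0, median 0.10). Hyou1, the ER HSP110 and nucleotide exchange factor of BiP, was 28.2 to 86.1 CPM in BALB/c control cones and was lower in both (log2 fold change -1.54, SE 0.36, adjusted p = 0.00438, and -1.49, SE 0.35, adjusted p = 0.00490). Edem2, which trims mannose from misfolded glycoproteins, was higher in both (0.95, adjusted p = 0.00150, and 0.69, adjusted p = 0.0176). Txndc5 was lower in control cones (-0.93, adjusted p = 0.0227) and at 0.24 in Txnip cones.

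Of 21 genes listed as HSP90 and HSP70 cochaperones, which include Tcp1 and the heat shock factor Hsf2, neither of them called, 1 was called higher and 3 called lower in control cones (11 of 21 below 0): Fkbp5, a glucocorticoid-induced HSP90 partner, was higher (1.59, SE 0.36, adjusted p = 0.00378, and 1.12, adjusted p = 0.0799, without C57BL/6J control 3), while Ptges3 (p23, -0.85, adjusted p = 0.00851) and Bag4 (-1.41, adjusted p = 0.00776) were lower, as was 1 more, and in Txnip cones 2 were called higher and 1 called lower. Of 8 prefoldin genes, which hand actin and tubulin to CCT, 1 was called in control cones, Pfdn5 (0.55, adjusted p = 0.0158), and 7 of 8 were above 0. In Txnip cones 1 was called higher and 1 called lower. Of 11 photoreceptor chaperones 2 were called in control cones and 3 in Txnip cones, all higher, those in control cones being Pdc (0.89, adjusted p = 0.000291), which binds transducin subunits, and Unc119 (0.77, adjusted p = 0.00170), which carries transducin. Of 17 mitochondrial proteostasis genes 1 was called in control cones, Bcs1l (0.85, adjusted p = 0.0343), and in Txnip cones 2 were called higher and 1 called lower. Over all genes 8.03% were called higher and 9.52% lower without Txnip, and 8.24% and 9.38% with it.

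Added Txnip called 0 genes of these 6 lists in either strain. The smallest adjusted p-values in BALB/c were 0.106 for Ppp1r15a (GADD34; log2 fold change -0.72) and Txndc5 (-0.90), and 0.112 for Pde6d (-0.54).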

How the data were processed

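Cones were sorted from single retinas, and 18 libraries were made by a modified Smart-Seq2 protocol. The authors deposited 1 table of gene counts per library, made per the file headers with featureCounts 1.6.2 on the Ensembl 94 annotation. The submitters' processing notes name STAR and GRCm38.p6. A read pair was counted for each gene it overlapped, without strand, so overlapping genes share reads. BALB/c reads were aligned to the C57BL/6J reference, and the effect of this was not tested. The authors' comparison tables hold fold changes and p-values, and were not used.

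Differences were tested by edgeR's quasi-likelihood test (version 4.0.16 under R 4.3.3, filterByExpr, TMM), with Benjamini-Hochberg adjustment over all genes tested and a threshold of 0.05. Txnip was tested within each strain, and the interaction and strain contrasts in 1 fit of 18 libraries. The biological coefficient of variation (relative spread between libraries beyond counting error) was 18.0% in the BALB/c fit and 34.3% in the C57BL/6J fit. It was 26.0% in the fit of all groups, so SEs and adjusted p-values of the strain contrasts may be too small for the more variable C57BL/6J groups. DESeq2 1.42.0, other filters and scalings, a replicate block, a rod covariate and leaving out libraries were alternatives. The fits were tested on simulated data. Whether libraries came from separate mice was not given, so p-values measure the spread between retinas. Total counts ran from 647712 to 5172156, and limits from a count of 0 (3 counts) cover counting error only. Copies were sought with BLAST 2.17.0 (95% identity over at least 100 bases).

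The members and lists were chosen with earlier results of these data known. Named were the best-known member of each class, the called members or the 5 smallest p-values for Txnip, the largest changes between strains among called members, the highest levels of each family and at most 3 genes of each other list. Other genes named were chosen with their values known.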

Additional observations from a re-analysis of the deposited data

Results flagged for a closer look

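A library was flagged where its gap to the next was large against the range of its group. This rule is set to flag about 1 group in 20 of normally distributed values. In 4 of 114 groups of libraries examined (3.51%), 1 library was flagged. Dnaja4 was at 23.5 CPM in BALB/c control 6 against 16.7 to 18.2 CPM in the other controls. Dnajb14 was at 49.9 CPM in the same library against 34.0 to 39.5 CPM. The shorter Ddit3 model was at 33.8 CPM there against 16.8 to 19.7 CPM. Chac1 was at 44.6 CPM in BALB/c Txnip 2 against 54.0 to 57.4 CPM in the other Txnip libraries of that strain.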

How the results depend on the processing

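Across the alternatives, Herpud1, Dnajb9 and Dnajc27 were called between the strains in 26 of 26 in both comparisons. Keeping all genes with at least 1 count gave 5 members called for Txnip in BALB/c and 1 for the interaction, Dnajb11. Requiring an absolute log2 fold change over 1 left 7 members between the strains in control cones (of 1474 genes) and 10 in Txnip cones (of 1481). Leaving out 1 library at a time gave 0 to 3 members called for Txnip in BALB/c, 0 in C57BL/6J and 0 for the interaction. Between the strains it gave 8 to 20 members in control cones and 11 to 21 in Txnip cones (the highest beside 18.9% and 18.7% of all genes). Of the genes listed for the integrated stress response it gave 10 to 11 and 8 to 9. In Txnip cones without C57BL/6J Txnip 1 the log2 fold change of Hspa14 turned to -0.0081 and that of Dnajc16 to 0.11, neither of which was called in that comparison. With 1 library left out at a time they ran from -0.0081 to 0.33 and from -0.28 to 0.11. The cause of these changes was not tested. With the replicate number as a block, 0 members were called in the 3 Txnip comparisons. Same-numbered libraries correlated at -0.108 to 0.0993 and 1 of 9 correlated best with its own number, so the numbers were not taken to pair the libraries. Each C57BL/6J group had 3 libraries, and Hspb8 and Trib3 had few counts there, which limits the precision of their values.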
